A study of Equus caballus with 6 samples.

Results

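RNA-Seq counts from Mongolian horse testis were searched for Ensembl genes that were nearly absent before sexual maturation and clearly expressed after it. A gene was chosen by its counts: at most 3 counts in each of the 3 immature libraries, and at least 10 counts per 1000000 counts on genes (CPM) in each of the 3 mature libraries. Gene length also had to be over 150 bp and under 9 kb. Of 26991 Ensembl genes, 1 met this rule, ENSECAG00000021785. The table holds 58724 genes in all, the rest being transcripts that the authors assembled outside the annotation. The label of the set is in the plural, but the rule gave a single gene.

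The libraries came from testes of 6 healthy horses that were gelded. BSM stands for the testes of 3 colts aged 11 to 13 months, which had not reached sexual maturity. ASM stands for those of 3 stallions aged 3 to 4 years, which had. All were Mongolian horses and no treatment is stated. Each horse gave 1 library of poly(A) RNA, and the stages share no animal. Counts on genes ranged from 14015484 to 15910529 in BSM and from 17195381 to 19721986 in ASM, so that 3 counts corresponded to between 0.152 and 0.214 CPM.

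The testis of a colt holds mainly Sertoli cells, Leydig cells and early germ cells. With sexual maturation the germ cells enter meiosis and then form round and elongating spermatids, and many genes are transcribed mainly in those late germ cells. A gene of this kind has little transcript in whole testis until spermatids are present. In whole tissue, fewer cells of a type and less RNA per cell cannot be told apart. The tables do not pair Ensembl identifiers with gene symbols or positions. Of the 39335 genes in the RefSeq table of another horse assembly, 0 carry such an identifier. The name, location, sequence and function of the gene are therefore not given here, and the testis was not checked against cell-type markers.

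ENSECAG00000021785 had 1 count in BSM1, 0 counts in BSM2 and 1 count in BSM3. Its counts were 678, 514 and 374 in ASM1, ASM2 and ASM3. The stages did not overlap, which is what the rule selected. Every ASM value exceeded every BSM value in 23.6% of the 20814 Ensembl genes of this length range that had a count. Scaled to library totals, the level was 0.0639 CPM in BSM1, 0 CPM in BSM2 and 0.0713 CPM in BSM3. In mature testis it was 35.0, 26.1 and 21.8 CPM in ASM1, ASM2 and ASM3, or 27.6 CPM ± 6.78 (SD, n = 3). With the counts of each stage pooled, 2 counts in BSM stood against 1566 in ASM. The ratio of pooled CPM was 634, with an exact 95% binomial interval from 175 to 5240 that covers counting error alone. With 2 counts in BSM, the size of the change is known only roughly.

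**Figure D1:**
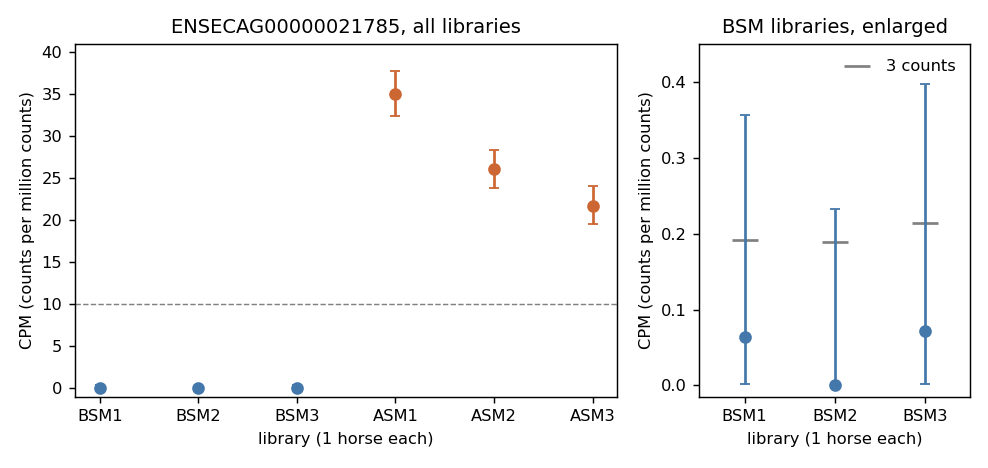
CPM of ENSECAG00000021785 in each of the 6 libraries, with exact 95% Poisson intervals as bars. On the left, the dashed line marks the floor of 10 CPM, and all 3 ASM libraries lie above it between 21.8 and 35.0 CPM. On the right, the BSM libraries are enlarged and grey marks show the CPM of 3 counts.

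In edgeR's quasi-likelihood test across 32954 genes, the gene was called higher in ASM, as were 41.4% of all genes tested. The rule had already selected on this contrast, and the call therefore adds nothing to the counts above. All 11 other fits, which used other scalings, filters, tests and sets of libraries, also called it higher.

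The place of the gene in mature testis depended on the genes it was set beside. FPKM divides the count by gene length as well as by library total, so it can be compared between genes. Its FPKM was 32.4, 24.1 and 20.1 in ASM1, ASM2 and ASM3, and the mean was 25.5 FPKM ± 6.26 (SD, n = 3). It was 0.0590 in BSM1, 0 in BSM2 and 0.0659 in BSM3. The comparison set was the other 8699 Ensembl genes in the same length range that also reached 10 CPM in every ASM library. Their median mean level in ASM was 29.1 FPKM, and ENSECAG00000021785 ranked 4729 from the top of the 8700 by FPKM and 5945 by CPM. Among all 20814 Ensembl genes of the length range with a count, it ranked 4767 by FPKM, above 77.1% of them. It took up 0.00276% of the counts in an ASM library on average.

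The rule chose the gene for few counts in the colts at a given level in the stallions, and the values around its limits are given as a description. Among the 8700 Ensembl genes at 10 CPM or more in every ASM library, 0 had no count in BSM. The highest BSM count was between 1 and 3 in 1 gene, the one described here. It was 4 or 5 in 1 gene, between 6 and 10 in 14 genes, and between 11 and 30 in 128 genes. In 52.4% of the 8700 genes it was above 100 and at most 1000, and in 40.7% it was above 1000. The typical gene at this level in mature testis was thus already transcribed in the colts.

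The other limit can be described in the same way. Of the genes in the length range, 3766 had at most 3 counts in every BSM library. Of these, 2989 had no count in at least 1 ASM library, which is 79.4%. A CPM of 1 or more in every ASM library was reached by 74 genes, of which 43 lay below 2, 25 between 2 and 5 and 5 between 5 and 10. In genes with 0 counts in all 3 BSM libraries, of which there were 1052, the lowest ASM value did not exceed 1.27 CPM. Where the highest BSM count was 1, as in ENSECAG00000021785, the lowest ASM value of the other 1394 genes did not exceed 3.26 CPM. It was 21.8 CPM in ENSECAG00000021785. For a highest BSM count of 2 this ceiling was 5.48 CPM, for 3 it was 7.35 CPM and for 4 it was 10.3 CPM. The ceiling of the other genes thus rose with the BSM count. Up to 3 counts it lies below 10 CPM by the rule, and ENSECAG00000021785 above it likewise, so the gap is a description of the chosen values.

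**Figure D2:**
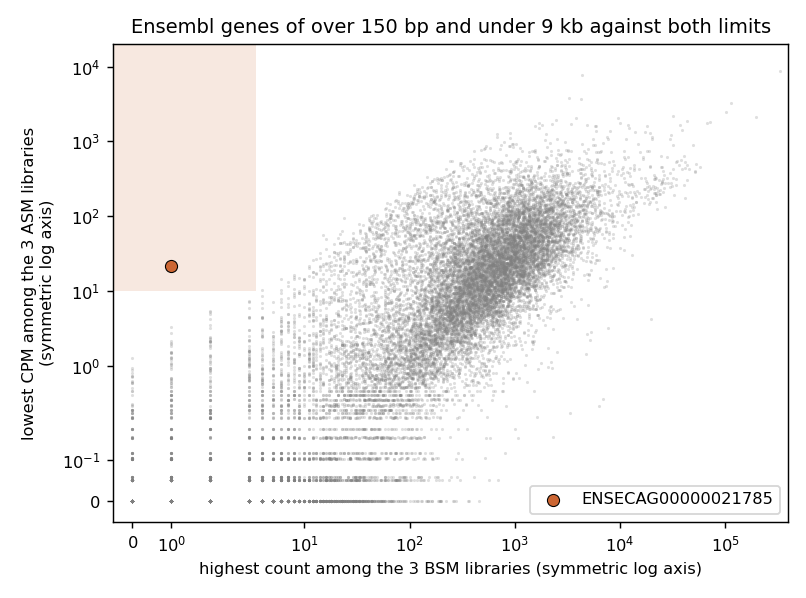
Each point is an Ensembl gene over 150 bp and under 9 kb, with its highest count among the BSM libraries on the horizontal axis and its lowest CPM among the ASM libraries on the vertical axis. The shaded corner is the region of the rule (at most 3 counts, at least 10 CPM), which holds ENSECAG00000021785 alone.

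The rule was also applied with 1 library left out at a time. ENSECAG00000021785 met the limits in all 6 libraries and so had to be chosen in each of the 6 cases. What this shows is which other genes a single library kept out. Without BSM1, BSM3, ASM1 or ASM3 it was the single gene chosen. Without BSM2, 4 genes were chosen, and the other 3 had 4, 7 and 10 counts in BSM2, where ENSECAG00000021785 had 0. Without ASM2, 2 genes were chosen, and the other had 7.35 CPM in ASM2, where ENSECAG00000021785 had 26.1 CPM. BSM2 was thus the library that kept the most genes out, 3, and ASM2 kept out 1.

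The mature horses were also described one by one. The exact 95% Poisson interval was 32.5 to 37.8 CPM in ASM1, 23.9 to 28.4 CPM in ASM2 and 19.6 to 24.1 CPM in ASM3. The interval of ASM1 lay above both others, and those of ASM2 and ASM3 overlapped. These intervals cover counting error alone, which separate animals commonly exceed. The ratio of ASM1 to ASM3 was 1.61. It remained between 1.60 and 1.72 when libraries were scaled by TMM, by DESeq2 size factors or by the counts on Ensembl genes alone. In the comparison genes the median ratio of ASM1 to ASM3 was 1.00, and 162 of them, or 1.86%, had a larger ratio. The order ASM1, ASM2, ASM3, whatever the size of the steps, was found in 17.0% of the comparison genes.

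The SD of log2 CPM among the ASM libraries was 0.35 for ENSECAG00000021785, with a median of 0.13 for the comparison genes. A larger SD was found in 534 of those genes, which is 6.14%. Counting error is larger in genes with fewer counts, so the gene was also set beside the 2270 other genes with a mean between 20 and 40 CPM in ASM. Their median SD was 0.14, and 8.85% of them had a larger one. The rule did not use the spread among the mature horses, although its floor of 10 CPM in each of them limits how far a gene can fall in 1 horse. The SD of the gene was 0.18 without ASM1, 0.49 without ASM2 and 0.30 without ASM3. Each of these values rests on 2 horses. Medians of the comparison genes were between 0.10 and 0.11 in these cases. With 1 library per horse, a difference between animals and a difference between preparations cannot be told apart.

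**Figure D3:**
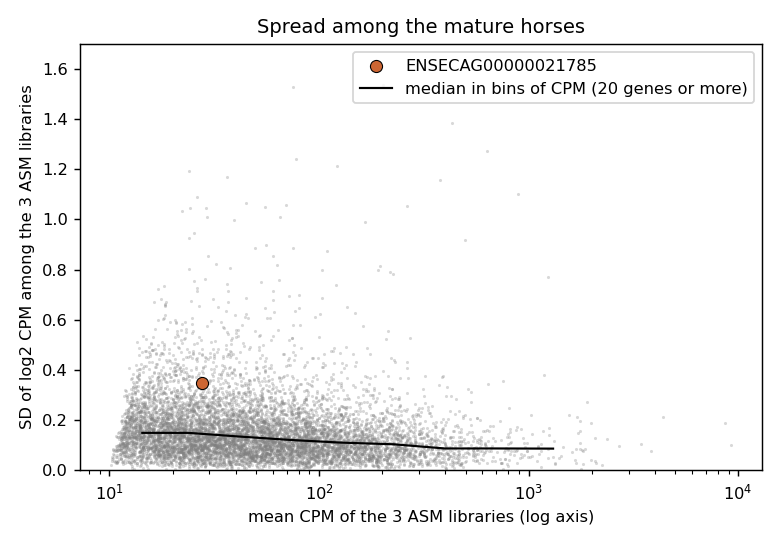
SD of log2 CPM among the 3 ASM libraries against their mean CPM (log axis), for the 8700 Ensembl genes over 150 bp and under 9 kb at 10 CPM or more in each. The line is the median in bins of CPM, and ENSECAG00000021785 lies above it at an SD of 0.35 and a mean of 27.6 CPM.

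The gene length behind the FPKM values, recovered from count, FPKM and library total, was 1083 bp. This was shorter than the median of 1602 bp in the comparison genes (quartiles 996 and 2555 bp) but within their middle range. The length is a multiple of 3, or 361 triplets. So were 45.3% of the lengths in the comparison set, 58.5% of all those in the length range, and 90.1% of those with at most 3 counts in every BSM library. Which parts of the transcript the gene models include was not tested.

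The genes just outside the limits are given as a description, since the limits fix their BSM counts or their ASM floor. In 15 Ensembl genes at 10 CPM or more in every ASM library, the highest BSM count was between 4 and 10. Their mean ASM level ranged from 10.9 to 22.1 CPM with a median of 15.4, below the 27.6 CPM of ENSECAG00000021785, although ASM3 reached 32.2 CPM in 1 of them. The ratio of pooled CPM between the stages ranged from 22.6 to 99.9. These genes had 54 counts in BSM1, 114 in BSM2 and 82 in BSM3 in all, and BSM2 alone held the most counts in 10 of the 15. Library totals were 15638712 in BSM1, 15910529 in BSM2 and 14015484 in BSM3. Among the 8699 comparison genes, BSM2 alone held the most counts in 66.4%, BSM1 in 24.8% and BSM3 in 8.27%. The count of 10 of the 15 is near the share of BSM2, and why BSM2 led was not tested. The 2 counts of ENSECAG00000021785, in BSM1 and BSM3, are too few to compare with these shares. The gene nearest to the limit had 0, 4 and 1 counts in BSM1, BSM2 and BSM3 and 200, 233 and 184 counts in ASM1, ASM2 and ASM3.

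At the other limit, 5 Ensembl genes had at most 3 counts in every BSM library and a lowest ASM value between 5 and 10 CPM. Their mean ASM level ranged from 7.07 to 9.91 CPM. Their SD of log2 CPM among the ASM libraries ranged from 0.19 to 0.60, above that of ENSECAG00000021785 in 4 of the 5. A larger SD was found in 1 of the 15 genes above, with a median of 0.15, and in 2 of the 9 assembled genes described next, with a median of 0.22. BSM2 alone held the most counts in 4 of the 5 genes.

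Among the assembled genes, 9 met both limits. Their mean ASM level ranged from 11.5 to 19.9 CPM, again below that of ENSECAG00000021785. The pooled ratio ranged from 102 to 246 in the 8 genes with a BSM count, and 1 gene had 0 counts in all 3 BSM libraries. That gene had 397, 267 and 238 counts in ASM1, ASM2 and ASM3. BSM2 alone held the most counts in 4 of the 9. The order ASM1, ASM2, ASM3 of ENSECAG00000021785 was shared by 1 of the 9 assembled genes, 1 of the 15 genes and 1 of the 5 genes above. It was found in 17.0% of the comparison genes, and these few genes do not show a difference from that share.

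**Figure D4:**
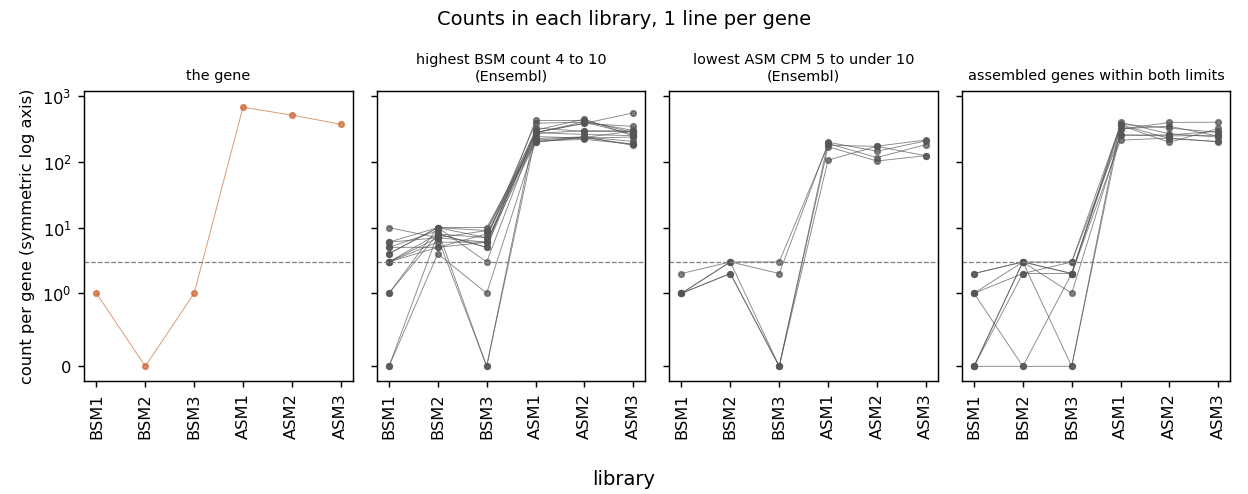
Counts of single genes in each library (symmetric log axis), with 1 line per gene to trace it across the libraries. The dashed line marks 3 counts. From the left, ENSECAG00000021785, the 15 Ensembl genes with a highest BSM count of 4 to 10, the 5 Ensembl genes with a lowest ASM value of 5 to 10 CPM, and the 9 assembled genes within both limits.

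The Ensembl gene with the most similar profile, chosen after the values were seen, was ENSECAG00000013150. Similarity was the Euclidean distance of log2(CPM + 1) over the 6 libraries, which was 1.05 for this gene. It had 0, 8 and 5 counts in BSM1, BSM2 and BSM3 and 427, 426 and 279 counts in ASM1, ASM2 and ASM3. Its length was 321 bp. Both genes were lowest in ASM3, at 16.2 CPM for ENSECAG00000013150. Both followed the order ASM1, ASM2, ASM3. They differed most in ASM1, at 22.1 CPM for ENSECAG00000013150, and in BSM2, where ENSECAG00000021785 had 0 counts. An assembled gene was closer, at a distance of 0.59, with 1, 6 and 3 counts in the BSM libraries and 552, 464 and 365 counts in the ASM libraries. It followed the order ASM1, ASM2, ASM3 as well. This likeness is a description of levels.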

How the data were processed

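Per the labels, libraries were made with a strand-marking kit from poly(A) RNA. The authors aligned paired reads with Bowtie2 2.2.3 and TopHat 2.0.12 to the Ensembl horse genome (release not given in the sources used here), assembled further transcripts with Cufflinks, and deposited raw counts per gene from HTSeq 0.6.1. The strand setting and the handling of overlapping genes are not given in the sources used here, so reads from an antisense or near-identical gene cannot be told apart. The deposited FPKM values were computed by the authors from count and gene length. Count, FPKM and library total gave a length within 0.01 bp of a whole number for 100% of 277309 values.

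CPM was the count divided by the library total. For ASM, column names and sample titles differ, so columns were used as replicates of the stage in no order of animals, and pairing was not possible. edgeR 4.0.16 (filterByExpr, TMM, quasi-likelihood F test, stage as the only term, Benjamini-Hochberg threshold of 0.05) was run in R 4.3.3 on all genes. DESeq2 1.42.0, limma 3.58.1 on log2(FPKM + 1) where mean FPKM exceeded 0.1, other scalings, filters and limits, and leaving out each library were alternatives. On simulated data, in the comparison of ASM with BSM over 32844 genes, edgeR recovered 155 of 200 changed genes, and 123 of 125 changed by 4-fold or more. It called 6 unchanged genes. DESeq2 recovered 153 and called 11 unchanged genes, and limma recovered 119 and called 18. The simulation used the same dispersion for every gene and few changed genes, all well counted. It therefore does not show the recovery for a gene with 2 counts in BSM, or where 41.4% of genes are called higher.

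The rule and the comparisons were chosen with earlier results of these data known. The identifiers to be named were fixed by rule as the member with the highest mean FPKM and the most abundant with 0 counts in BSM. With 1 member the second did not exist, and the most similar gene was named instead.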

Additional observations from a re-analysis of the deposited data

How the results depend on the processing

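The limits of the rule decided how many genes it gave. The single gene became 0 with 0 counts required in each BSM library, 16 with up to 10 counts allowed there, 6 with a floor of 5 CPM in each ASM library and 4 with a floor of 10 FPKM in place of CPM. ENSECAG00000021785 was among the genes in each of these except the first, which it failed by 1 count in each of BSM1 and BSM3. With 20 CPM, TMM or DESeq2 scaling, or no limit on length, it was again the single gene. Leaving out each library in turn gave between 1 and 4 genes, the most without BSM2. The SD of log2 CPM among ASM libraries ranged from 0.18 without ASM1 to 0.49 without ASM2, the mean CPM from 23.9 to 30.6 and the share of ASM counts from 0.00239% to 0.00306%. The other scalings of these values and of the ratio between ASM libraries moved them by less than 1 SD or less than 1.5 times. The comparison with genes at 20 to 40 CPM, DESeq2 factors for the spread, and the scalings of the ratio were chosen after seeing the data. Depth limits how low a BSM value can be read, since 3 counts correspond to between 0.189 and 0.214 CPM there.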
